A study of Mus musculus with 3 samples.

Results

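Myelo-3 is a group of neutrophil-lineage cells among wild-type C57BL/6 mouse bone marrow progenitors that were profiled by CITE-seq, a single-cell method that counts mRNA molecules and DNA-tagged antibodies on the same cell. Its members were taken from the authors' deposited cluster list, in which every cell carries 1 of 17 names, and they number 955 of 11132 cells. The female library held 426 of them among its 4336 cells (9.82%, exact 95% binomial interval 8.95% to 10.7%) and the male library 529 of 6796 (7.78%, 7.16% to 8.45%). Marrow from crushed hindlimb bones was enriched for CD117 with microbeads, stained with fluorescent and tagged antibodies and sorted, and 10000 cells were loaded per sample. The cells had no genetic change and no treatment, the antibody library was pooled over both samples, and the sources used here do not give the number or age of the mice. CD117 is the receptor that most maturing neutrophils have lost, so the enrichment and the sort set which maturing cells could enter and how many, and a share of cells here is not their share of marrow. The neighbours used for comparison were Myelo-2 (340 female and 373 male cells), Myelo-4 (31 and 28 cells) and, for the antibodies, Myelo-1 (194 and 365 cells).

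Neutrophils build their granules in waves as they mature. Promyelocytes make primary granule enzymes such as elastase and myeloperoxidase while they divide, myelocytes and metamyelocytes make secondary granule proteins such as lactoferrin under the transcription factor C/EBP epsilon, and later cells make gelatinase granules and receptors for chemotaxis. Division stops around the metamyelocyte stage, when the nucleus also begins to change shape, and Ly-6G appears on the surface of mouse neutrophils as they mature.

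The 4 marker genes given for Myelo-3 are Ngp (neutrophilic granule protein), Ltf (lactoferrin, an iron-binding granule protein), Camp (the cathelicidin antimicrobial peptide) and Ly6g (the Ly-6G surface protein). Ngp, Ltf and Camp lie on chromosome 9 within 1170 kb of each other. The 250 bases before the annotated start of each gene are shown, together with those of Mmp8 (neutrophil collagenase). They were chosen because C/EBP epsilon is known to act on granule genes. The 4 markers were at their highest in the 3 late Myelo clusters, whereas Mmp8 was far higher in Myelo-4 than in Myelo-2 or Myelo-3. The sequences are the RefSeq gene-start windows of build GRCm38.p6, and capitals mark matches to the C/EBP core TTGCNNAA or its reverse complement TTNNGCAA, searched on both strands.
Ltf, chr9:111019042-111019291, plus strand: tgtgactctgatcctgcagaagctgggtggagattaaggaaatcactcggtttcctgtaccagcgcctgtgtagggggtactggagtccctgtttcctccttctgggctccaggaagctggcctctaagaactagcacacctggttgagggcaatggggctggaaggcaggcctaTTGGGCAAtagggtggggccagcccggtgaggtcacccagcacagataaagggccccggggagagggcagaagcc
Ngp, chr9:110419558-110419807, plus strand: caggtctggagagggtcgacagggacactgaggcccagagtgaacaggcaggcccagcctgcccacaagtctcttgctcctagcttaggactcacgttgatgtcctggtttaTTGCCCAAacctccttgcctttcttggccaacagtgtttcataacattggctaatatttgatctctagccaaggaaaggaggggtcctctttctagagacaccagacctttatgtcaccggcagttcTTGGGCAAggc
Camp, chr9:109849457-109849706, minus strand: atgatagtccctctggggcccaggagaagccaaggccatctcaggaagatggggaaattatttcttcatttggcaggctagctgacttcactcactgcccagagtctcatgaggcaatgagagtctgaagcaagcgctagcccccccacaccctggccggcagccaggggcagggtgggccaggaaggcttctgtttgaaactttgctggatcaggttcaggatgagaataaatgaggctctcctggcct
Ly6g (the first of 2 annotated starts), chr15:75155011-75155260, plus strand: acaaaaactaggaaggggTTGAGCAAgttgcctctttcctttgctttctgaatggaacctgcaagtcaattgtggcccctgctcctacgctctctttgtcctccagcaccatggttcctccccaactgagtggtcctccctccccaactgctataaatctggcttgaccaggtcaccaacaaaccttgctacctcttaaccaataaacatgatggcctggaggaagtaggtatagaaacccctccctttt
Mmp8, chr9:7558179-7558428, plus strand: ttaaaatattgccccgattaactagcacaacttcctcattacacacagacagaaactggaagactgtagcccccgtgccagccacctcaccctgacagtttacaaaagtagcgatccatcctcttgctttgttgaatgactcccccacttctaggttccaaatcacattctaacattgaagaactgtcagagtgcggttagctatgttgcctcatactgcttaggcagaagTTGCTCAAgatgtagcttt
Ngp held 2 matches, whose first bases lay at -138 and -11 from the start, and Ltf held 1 at -75. Ly6g held 1 at -232 before its first start and none before its second, Mmp8 held 1 at -19, and Camp held none. Of 32851 windows of 250 bases in the table, 9.56% held at least 1 match and 0.572% held 2 or more. These matches are descriptions of the letters and not sites shown to be bound. Cebpe, the gene of C/EBP epsilon, was measured in Myelo-3 at 1329 (female) and 1139 (male) TMM-scaled CPM, a gene's UMIs relative to a scaled total of its cluster.

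The female library held 91448433 UMIs (unique molecular identifiers, each marking 1 captured mRNA molecule) and the male library 124967351. Myelo-3 cells gave 4254548 and 5190734 of these. The median Myelo-3 cell had 9531 UMIs from 1838.5 genes in the female library and 8770 UMIs from 1720 genes in the male library, less than Myelo-2 cells (13669.5 and 12673 UMIs) and more than Myelo-4 cells (5844 and 5057). Levels below are UMIs summed over the cells of a cluster in 1 library, as CPM (counts relative to the total of that sum) scaled by TMM over all clusters, called scaled CPM. TMM divides by an effective library size, so in clusters where a few granule genes take much of the RNA a scaled CPM exceeds the plain one. For S100a8 in female Myelo-3 cells it was 349735 against a plain CPM of 207831. With 1 library per sex, 2 values per cluster are all the replication there is, and the labels do not say how many mice stand behind each.

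Before any comparison, a minority of Myelo-3 cells that stand apart has to be named. In 12 of 426 female cells (2.82%, 1.46% to 4.87%) and 94 of 529 male cells (17.8%, 14.6% to 21.3%), 15% or more of the UMIs came from 80 cytosolic ribosomal protein genes. The limit was chosen after the values were seen, and the nearest cells on each side of it had 14.9% and 15.6%. The other Myelo-3 cells had a median of 7.55% (female) and 7.14% (male). Myelo-2 held 6 and 20 such ribosome-rich cells and Myelo-4 held 0 and 1. Results that rest on them are given with and without them.

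**Figure D1:**
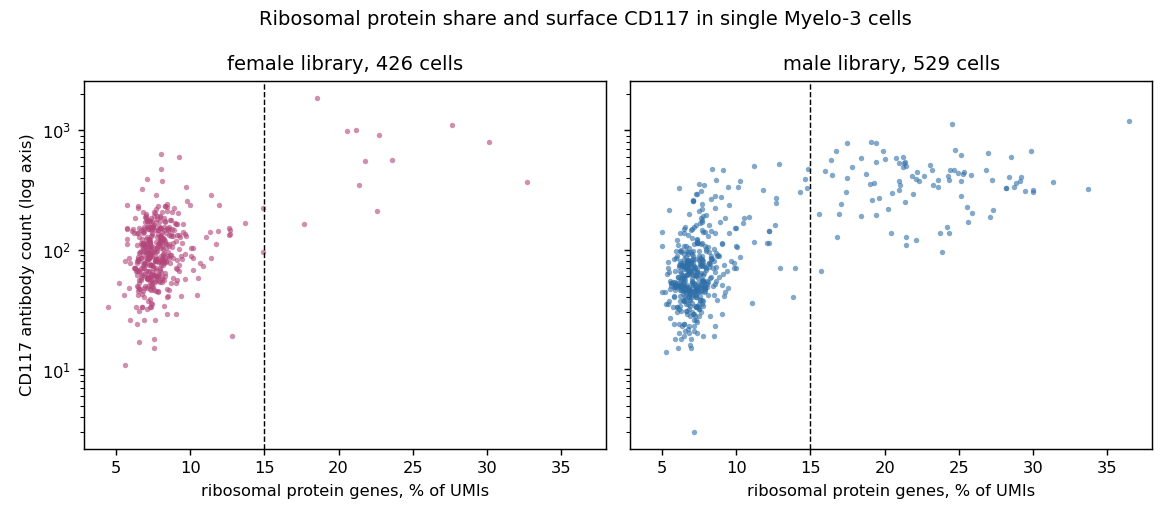
Share of UMIs from ribosomal protein genes (x axis, %) against the CD117 antibody count (y axis, log scale) in each of the 426 female and 529 male Myelo-3 cells, with a dashed line at 15%. The 12 female and 94 male cells to the right of the line lie mostly above the CD117 counts of the main cloud, whose medians were 94 and 62.

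The ribosome-rich cells differed from the other Myelo-3 cells in depth, granule RNA and surface CD117, and the values are a description of cells picked by their RNA. Their median UMI count was 17972 in the female library and 13503 in the male, against 9419 and 7964 in the other cells. Ltf, Camp, Ngp and Lcn2 together made up 7.58% and 6.92% of their UMIs, against 13.3% and 14.2%, and the calprotectin genes S100a8 and S100a9 made up 17.1% and 16.6%, against 35.7% and 35.1%. Surface CD117, the stem cell factor receptor, had medians of 680 and 379 antibody counts against 94 and 62, whereas Ly-6G was not low, at 6682.5 and 2903.5 against 3704 and 2047. These cells thus had neutrophil granule RNA and surface Ly-6G together with a median CD117 above that of Myelo-1 (250 and 180).

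Several genes of stem and progenitor cells had most of their male Myelo-3 UMIs in the same cells. The ribosome-rich cells of the male library held 90.3% of the Myelo-3 UMIs of Sox4, a transcription factor gene of early progenitors, 91.7% of those of Meis1, 91.3% of those of Gata2 and 81.5% of those of Cd34. Pf4, a platelet chemokine gene, and Cd74, the MHC class II invariant chain, had 93.8% and 87.4% of their male Myelo-3 UMIs in these cells, of which 107 Pf4 UMIs and 117 Cd74 UMIs came from 1 cell each. In the female library 12 cells were ribosome-rich. They held 62.9% of the Myelo-3 UMIs of Sox4, 71.4% of Meis1, 70.4% of Gata2 and 30.9% of Cd34. Their female shares of Pf4 and Cd74 were 13.2% and 3.51%. Female Pf4 still had 24.8 plain CPM in these cells against 8.14 in the others, whereas Cd74 had 9.94 against 13.6. For comparison, the elastase gene Elane had a similar plain CPM in both kinds of cell. It had 5.18% of its female and 25.9% of its male Myelo-3 UMIs in the ribosome-rich cells. No doublet caller was run here and no removal of doublets is stated in the sources used here, so whether these droplets held more than 1 cell was not tested. Across libraries, 45 cell barcodes occurred in both, 8 of them with a Myelo-3 cell in 1 library (5 female and 3 male cells), and 0 were Myelo-3 in both.

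The label was checked against its 4 markers over the 15 clusters with at least 20 cells in each library. Camp was highest in Myelo-3 in the female library, at 108955 scaled CPM, and second to Myelo-2 in the male library, at 88780 against 112612. Ngp in Myelo-3 reached 79461 and 64497 and ranked 2 and 3, with Myelo-2 the highest at 80398 and 80978. Ltf in Myelo-3 reached 9276 and 7875 and ranked 2 and 3, with Myelo-4 the highest at 12509 and 11891. Ly6g in Myelo-3 reached 727 and 531 and ranked 2 in both libraries, well under the 2600 and 2191 of Myelo-4. All 4 markers were therefore high in Myelo-3, and each was as high or higher in a neighbour in at least 1 library.

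**Figure D2:**
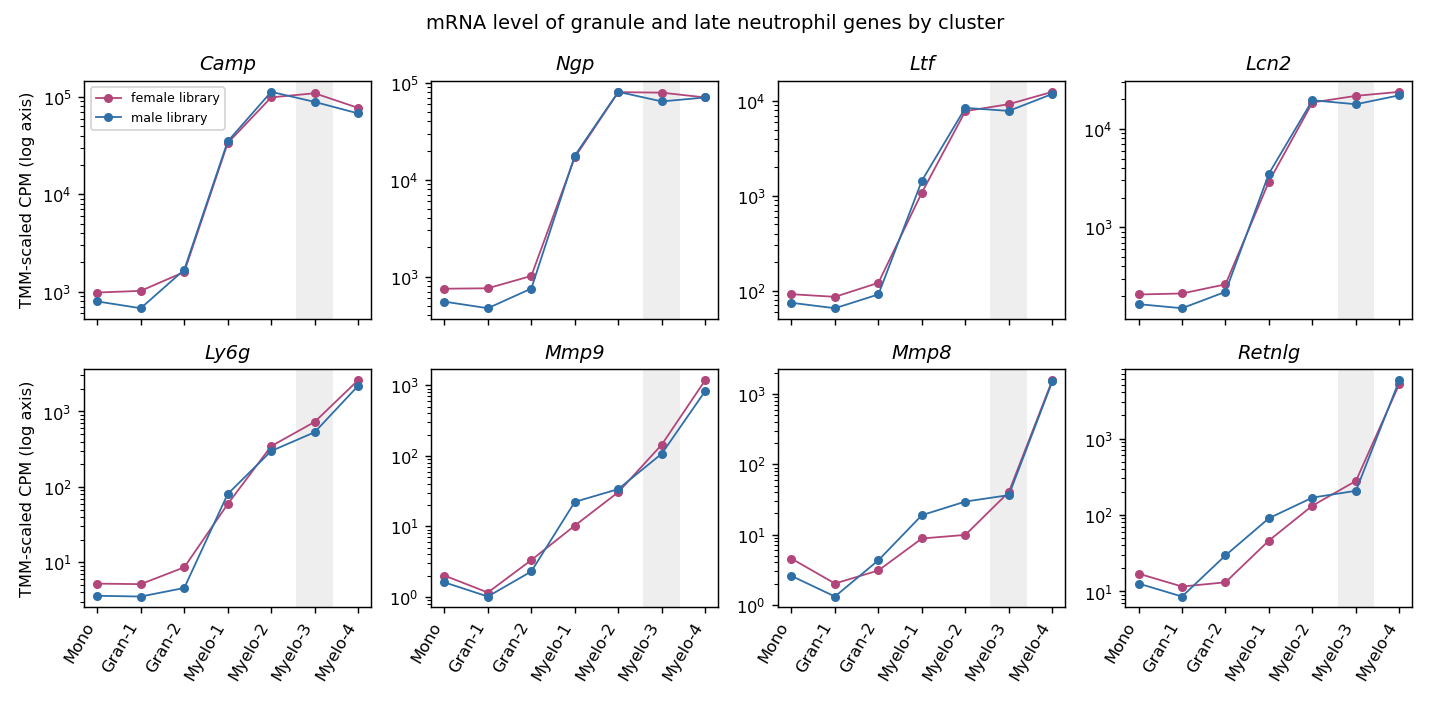
TMM-scaled CPM (y axes, log scale) of 8 granule and late neutrophil genes in 7 clusters of each library, with Myelo-3 shaded. Camp, Ngp, Ltf and Lcn2 are near their top from Myelo-2 on, whereas Ly6g, Mmp9, Mmp8 and Retnlg lie between Myelo-2 and Myelo-4 in Myelo-3.

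No gene singled Myelo-3 out. Of 2224 genes with a mean of at least 50 scaled CPM in Myelo-3, 24 were highest there in both libraries and 0 were 2-fold or more above the next cluster in both. The largest mean ratio to the next cluster, 1.27-fold, belonged to Inhba, which encodes an activin subunit. Inhba had 67.6 and 61.6 scaled CPM in Myelo-3, 44.6 in female Myelo-4 and 57.9 in male Myelo-2. Ear2, a ribonuclease gene of granulocytes, had 144 and 95.9 in Myelo-3 against 119 and 78.9 in Myelo-4. The cluster is thus described by its place between its neighbours rather than by genes of its own.

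As a share of all UMIs, the secondary granule list was at a similar level in Myelo-2, Myelo-3 and Myelo-4, but its members were not all level. The 12 listed genes, of which Ptx3 had no UMI in Myelo-3, took 14.2% of Myelo-3 UMIs in the female library and 13.3% in the male. The same list took 14.2% and 14.9% in Myelo-2 and 14.2% and 14.0% in Myelo-4. Lcn2, which encodes the siderophore-binding protein lipocalin 2, had 21665 and 17798 scaled CPM in Myelo-3, 18546 and 19558 in Myelo-2, and 23793 and 21950 in Myelo-4. Chil3, a chitinase-like protein gene, had 9500 and 8787 in Myelo-3, below the 10575 and 12200 of Myelo-2 and above the 4100 and 5722 of Myelo-4. Mmp8 and Slpi, given below, were called lower in Myelo-3 than in Myelo-4. In male scaled CPM, every one of Camp, Ngp, Ltf and Lcn2 lay lower in Myelo-3 than in Myelo-2. This depended in part on the scaling. After thinning every cell to the same UMI count, male Camp and Ngp were still lower in Myelo-3. Their means were 254 and 185 UMIs per cell, against 275 and 204 in Myelo-2. Male Ltf was not lower, at 22.9 against 22.1. The ribosome-rich cells were then left out of both clusters and the scaling factors made anew. Male Camp in Myelo-3 then reached 120867, Ngp 86994 and Ltf 10565, and Camp rose less in plain CPM, given below. The male median log2 ratio of the list to Myelo-2 was then 0.12, against -0.23 with all cells. With all cells and plain CPM it was -0.08.

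Primary granule genes were far below their earlier peak. The list summed to 6803 and 5722 scaled CPM in Myelo-3, against 33498 and 33286 in Myelo-1. Its highest sums, 54197 and 58779, were in the cluster named Gran-2. Elane, the neutrophil elastase gene, had 1704 and 1443 scaled CPM in Myelo-3, against 14114 and 14950 in Myelo-1 and 2204 and 2494 in Myelo-2. Mpo, the myeloperoxidase gene, had 1891 and 1600 in Myelo-3 and 1779 and 1701 in Myelo-2, so that Myelo-3 was higher in the female and lower in the male. Fcnb, which encodes a ficolin lectin, had 846 and 824 in Myelo-3, below Myelo-2 (1677 and 2259) and above Myelo-4 (149 and 245). Calprotectin, the calcium-binding pair encoded by S100a8 and S100a9, took a median of 35.6% of a female and 34.0% of a male Myelo-3 cell's UMIs, compared with 30.4% and 30.3% in Myelo-2 and 35.7% and 36.3% in Myelo-4.

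Against Myelo-2, few genes separated Myelo-3. Since the RNA may have shaped the clusters, a gene was called by size only, when it differed at least 2-fold in the same direction in both libraries, and no p-value is given. Of 8842 genes with enough counts, 85 were higher in Myelo-3 (0.961%) and 10 were lower (0.113%). These counts were 43 (0.486%) and 19 (0.215%) without the ribosome-rich cells. With all cells, the 85 held the stem cell genes Sox4 and Meis1, the globin genes Hba-a1 and Hbb-bs, whose near-identical copies can share reads, and Cpa3, a mast cell protease gene. Of these, Hba-a1 alone was called without the ribosome-rich cells.

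Among the neutrophil lists, the called genes were Mmp9, Fpr1 and S100a6. Of 14 late neutrophil genes 13 were tested, and Mmp9 and Fpr1 were higher in Myelo-3, with 0 lower. Mmp9 encodes gelatinase B, the enzyme of gelatinase granules. It had 144 and 107 scaled CPM in Myelo-3 and 30.6 and 33.8 in Myelo-2, which is 4.72-fold and 3.18-fold higher (mean log2 ratio 1.95 ± 0.40, SD over 2 libraries). Fpr1, a formyl peptide receptor gene, was scarce, at 4.35 and 3.68 scaled CPM against 3 and 6 UMIs in all Myelo-2 cells. Fpr2, its paralogue, had 223 and 117 against 99.2 and 71.0, and passed the 2-fold rule in both libraries only without the ribosome-rich cells. The list's median log2 ratio was 0.42 (female) and 0.29 (male), beside -0.01 and -0.06 over all genes tested.

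S100a6, which encodes a calcium-binding protein outside calprotectin, was the only one of 9 tested S100 and stefin genes called higher. Its level was 811 and 486 scaled CPM in Myelo-3 against 272 and 226 in Myelo-2, or 2.98-fold and 2.15-fold higher (mean log2 1.34 ± 0.33). Slfn1, a Schlafen family gene, had 18.6 and 12.2 against 4.19 and 5.48, 4.43-fold and 2.22-fold higher. Ly6g itself was 2.09-fold and 1.77-fold higher than in Myelo-2 (mean log2 0.95 ± 0.17), just short of the rule in the male library, and 2.18-fold and 2.33-fold higher without the ribosome-rich cells.

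Some of the largest differences from Myelo-2 were not neutrophil genes and rested on the ribosome-rich cells. Rgs1, a regulator of G protein signalling, was 9.51-fold and 7.43-fold higher with all cells and 1.53-fold and 1.98-fold higher without them. Ctla2a, a protease inhibitor gene, was 3.77-fold and 9.80-fold higher with them and 1.28-fold and 2.30-fold without. Ifitm1, an interferon-induced membrane protein gene, was 2.33-fold and 4.57-fold higher with them and 1.36-fold and 1.37-fold without, so none of these genes was then called.

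Of 15 S-phase genes, which serve DNA replication, 0 were called between Myelo-3 and Myelo-2, with a median log2 ratio of -0.58 (female) and -0.28 (male). Rrm2, a ribonucleotide reductase subunit that supplies nucleotides for replication, had 306 and 264 scaled CPM against 537 and 551 (mean log2 -0.94 ± 0.18). Tyms, thymidylate synthase, had 132 and 148 against 216 and 268. The G2/M list, also with 0 of 15 called, had medians of -0.12 and -0.60. Mki67, a proliferation marker, had 208 and 182 in Myelo-3 against 219 and 233 in Myelo-2. Per UMI, S-phase genes took 0.0898% and 0.109% of all Myelo-3 UMIs against 0.145% and 0.141% in Myelo-2, while G2/M genes took 0.566% and 0.486% against 0.650% and 0.622%. None of the 12 tested transcription factor genes was called, among them Cebpe (1429 and 1533 in Myelo-2) and Spi1, which encodes PU.1 (618 and 496 in Myelo-3, 598 and 640 in Myelo-2).

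Immediate early genes had higher medians in Myelo-3 than in Myelo-2, 0.43 and 0.71 on the log2 scale, with 0 of 9 called. Fos, a subunit of the AP-1 transcription factor, had 447 and 415 scaled CPM against 288 and 241. The list's medians were 0.39 and 0.40 without the ribosome-rich cells. Myelo-3 lay below Myelo-4 in the same list, with medians of -0.84 and -0.29 and 0 of 8 called. Genes for the phagocyte NADPH oxidase were level with Myelo-2, and 0 of 7 were called. Cybb, its catalytic subunit, had 1193 and 950 in Myelo-3 against 943 and 959 in Myelo-2. The actin, nucleolar, endoplasmic reticulum folding, glycolysis, interferon and mitochondrial lists also had 0 genes called against Myelo-2. In the nucleolar list the medians were 0.01 and 0.47 with all cells and -0.12 and -0.09 without the ribosome-rich cells.

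**Figure D3:**
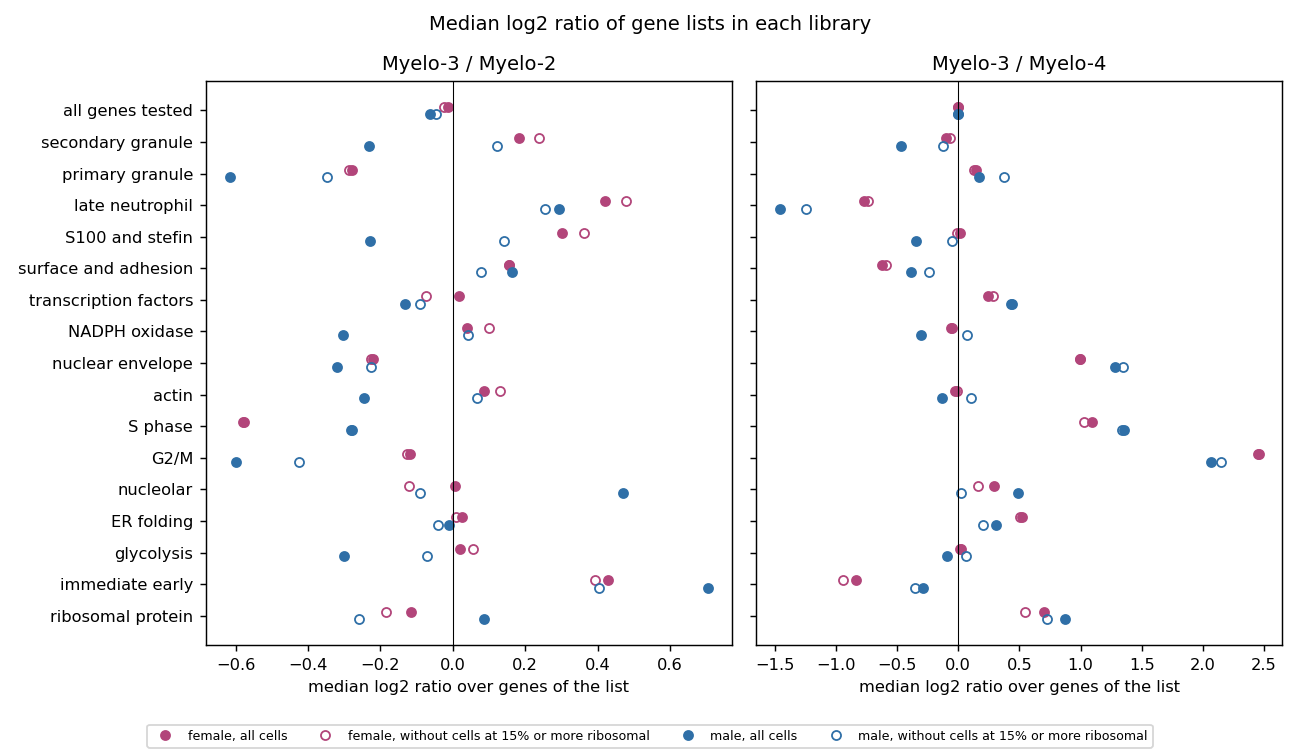
Median log2 ratio over the tested genes of each list (x axes) of Myelo-3 to Myelo-2 and of Myelo-3 to Myelo-4, in the female and male library, with all cells (filled) and without the ribosome-rich cells (open). The S-phase list lies left of 0 against Myelo-2, and the G2/M list lies at 2.45 and 2.06 against Myelo-4 with all cells.

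Against Myelo-4, mitotic genes stood out: the G2/M list had the largest median ratio of the lists in both libraries. Of 7500 genes tested by the same size rule, 317 were higher in Myelo-3 (4.23%) and 108 were lower (1.44%). The number of Myelo-4 cells, 31 and 28, limits the depth of its sums, and many cycle genes had only a few UMIs there. Of 15 G2/M genes 14 were higher in Myelo-3, Plk1 being the exception, with median log2 ratios of 2.45 (female) and 2.06 (male) beside 0 over all genes tested. Without the ribosome-rich cells all 15 were called, out of 304 genes higher (4.05%) and 96 lower (1.28%).

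Birc5, the survivin gene of the chromosomal passenger complex, had 518 and 403 scaled CPM in Myelo-3 against 52.0 and 61.3 in Myelo-4, 9.96-fold and 6.56-fold higher. Hmgb2, a chromatin protein gene, had 5813 and 4314 against 1783 and 1516, 3.26-fold and 2.85-fold higher (mean log2 1.61 ± 0.14). Tubb4b, a tubulin gene, had 439 and 371 against 96.6 and 131. Mki67, at 208 and 182 in Myelo-3, came to 3 and 1 UMIs in all Myelo-4 cells. Cenpf, a kinetochore protein gene with 134 and 110 in Myelo-3, had 0 UMIs in Myelo-4 in both libraries, which against 3 counts per library is at least 6.02-fold and 4.18-fold higher. After thinning every cell to 4000 UMIs, Mki67 was detected in 33.8% of female and 34.6% of male Myelo-3 cells (exact intervals 29.3% to 38.5% and 30.5% to 38.8%), in 37.1% and 42.1% of Myelo-2 cells, and in 2 of 31 and 1 of 28 Myelo-4 cells. Without thinning, the shares were 59.9% and 54.6% in Myelo-3 and 81.8% and 79.9% in Myelo-2.

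Some replication and nuclear envelope genes were higher in Myelo-3 too. Of 15 S-phase genes 9 were higher in Myelo-3 than in Myelo-4, and 7 without the ribosome-rich cells, when Mcm3 and Pcna were no longer called. With all cells, 6 were higher with plain CPM and 4 with RLE size factors. Dut, the dUTPase gene, had 218 and 251 scaled CPM against 89.1 and 61.3. Of 7 tested nuclear envelope genes 3 were higher. Lmnb1, lamin B1, had 172 and 146 against 44.6 and 17.5, Tmpo, a lamin-binding protein gene, had 268 and 224 against 59.4 and 8.76, and Banf1, which bridges chromatin and the envelope, had 231 and 216 against 52.0 and 17.5. Lbr, the lamin B receptor, which is needed for nuclear lobing in neutrophils, had 311 and 220 against 156 and 105 (mean log2 1.03 ± 0.05) and did not meet the rule in both libraries.

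Late neutrophil genes lay lower in Myelo-3 than in Myelo-4. Of 13 tested, Mmp9, Retnlg, Fpr1 and Fpr2 were lower and 0 were higher, with median log2 ratios of -0.77 and -1.46. Retnlg, a resistin-like secreted protein gene, had 278 and 207 scaled CPM against 5185 and 5792, 18.6-fold and 28.0-fold lower. Mmp9 was 8.23-fold and 7.75-fold lower. Among secondary granule genes Mmp8 and Slpi, a protease inhibitor gene, were lower and the other 8 tested were not called. Mmp8 had 40.3 and 36.5 against 1590 and 1525, 39.4-fold and 41.8-fold lower. S100a6 was 3.97-fold and 7.73-fold lower, and Ly6g was 3.57-fold and 4.13-fold lower. Ceacam10, an adhesion molecule gene (54.2 and 46.9 against 297 and 280), and Isg15, an interferon-induced gene (10.7 and 10.2 against 37.1 and 52.6), were also lower.

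How many genes were called in each direction against Myelo-4 depended on the scaling. TMM put 74.6% of the called genes higher in Myelo-3 (317 against 108), plain CPM 58.6% (215 against 152) and RLE size factors 33.8% (130 against 255), because these shift every Myelo-4 ratio by -0.24 and -0.10 and by -0.51 and -0.39 on the log2 scale. With plain CPM and RLE respectively, 14 and 11 of 15 G2/M genes and 3 of 7 nuclear envelope genes (under both) were higher, and 5 and 7 of 13 late neutrophil genes were lower. S-phase genes, as given above, lost calls under both, and 0 were called lower. Ribosomal protein genes, with medians of 0.70 and 0.87 under TMM, had 2 of 77 called (Rpl3 and Rpl35) and none without the ribosome-rich cells.

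The tagged antibodies gave a second readout of the same cells. Median Ly-6G counts were 3766.5 (female) and 2196 (male) in Myelo-3, 1533.5 and 812 in Myelo-2, and 14166 and 8183 in Myelo-4. Myelo-3 thus lay 2.46-fold and 2.70-fold above Myelo-2 and 3.76-fold and 3.73-fold below Myelo-4, in the same order as Ly6g mRNA. No test was made, since the smallest p of an exact permutation test over 2 libraries is 0.5. In the female library 72.1% of Myelo-3 cells exceeded the Myelo-2 median and 7.75% the Myelo-4 median, and in the male library 80.7% and 9.45%.

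Ly-6C ran in the opposite order. Its median was 7200 and 4419 in Myelo-3, against 26086.5 and 15163 in Myelo-1, 13698.5 and 8779 in Myelo-2, and 4641 and 2280 in Myelo-4. Myelo-3 was 1.90-fold and 1.99-fold below Myelo-2. The mRNA of Ly6c2, which encodes a Ly-6C protein, did not show this step in the female library. It had 2468 scaled CPM in female Myelo-3, 2415 in Myelo-2 and 2362 in Myelo-4. In the male library it was lower in Myelo-3, at 1775, than in Myelo-2 (2433) and Myelo-4 (2182), a smaller step from Myelo-2 than that of the antibody. CD117 had medians of 95 and 73 in Myelo-3, 125 and 82 in Myelo-2 and 40 and 31.5 in Myelo-4. CD11b, the integrin alpha M chain encoded by Itgam, had 5800.5 and 3185, against 6414 and 3239 in Myelo-2 and 3827 and 2396 in Myelo-4. The small CD117 and CD11b differences from Myelo-2 changed sign when each antibody was taken as a share of the cell's 4 antibody counts.

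**Figure D4:**
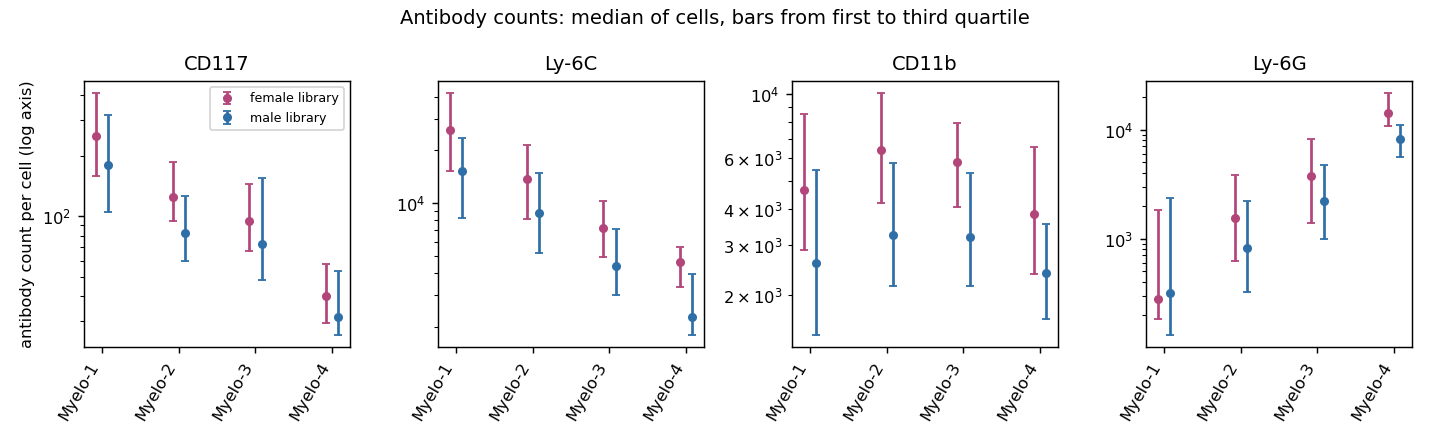
Antibody counts per cell (y axes, log scale) in Myelo-1 to Myelo-4, as medians with bars from the first to the third quartile of cells in each library. Ly-6G medians go up from 277 and 318 in Myelo-1 to 14166 and 8183 in Myelo-4, while Ly-6C medians go down from 26086.5 and 15163 to 4641 and 2280.

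Surface Ly-6G was also the most uneven of the antibodies inside Myelo-3 in both libraries. The 90th percentile of cells was 19.4-fold (female) and 18.1-fold (male) above the 10th percentile, compared with 4.15-fold and 6.19-fold for CD11b, 4.50-fold and 5.36-fold for Ly-6C, and 4.11-fold and 11.3-fold for CD117. Across cells, the Ly-6G antibody and the share of Ly6g mRNA had a Spearman rho of 0.64 over 426 female and 0.50 over 529 male cells, while CD11b and Itgam mRNA had 0.01 and 0.05. These are descriptions of cells from 2 libraries that share depth and staining. After thinning to 4000 UMIs, Ly6g mRNA was seen in 67.8% and 65.4% of Myelo-3 cells (81.2% and 81.5% unthinned), in 0 of 41 female and 4.65% of 43 male erythroid cells, which should lack it, and in all 31 female and 96.4% of male Myelo-4 cells.

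This spread allowed a test inside the cluster. In each library Myelo-3 cells were ranked by Ly-6G antibody count, and the UMIs of the highest and of the lowest 142 female and 176 male cells were summed. Median Ly-6G was 10390 and 6181 in the high groups and 950.5 and 703 in the low groups, with ranges that do not overlap because the ranking made them. edgeR's quasi-likelihood test, with the library as a covariate over the 4 sums, called 45 of 6587 genes higher (0.683%) and 65 lower (0.987%) at a Benjamini-Hochberg adjusted p under 0.05. The 4 sums leave 1 residual degree of freedom, so the p-values lean on the dispersion shared across genes, and DESeq2 called 6 higher and 8 lower. Values in these sums are CPM scaled over the 4 sums only, and are lower than the cluster levels above.

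Genes of later neutrophils rose with surface Ly-6G. Ly6g, as a check of the split, had 798 (female) and 485 (male) CPM in the high groups and 151 and 155 in the low groups (log2 fold change 2.02 ± 0.15 SE, edgeR adjusted p = 1.99e-07). Mmp8 had 65.3 and 52.2 CPM against 1.36 and 3.11, a log2 fold change of 4.63 ± 0.34 (edgeR adjusted p = 1.84e-07). Only 7.75% of female and 8.32% of male Myelo-3 cells had an Mmp8 UMI, so this change rests on few cells. Mmp9 had 176 and 124 against 33.4 and 25.5 (2.34 ± 0.15, edgeR adjusted p = 5.32e-08). Retnlg had 289 and 212 against 107 and 70.2 (1.51 ± 0.12, edgeR adjusted p = 5.54e-07). Mmp8 and Retnlg, which differed most between Myelo-4 and Myelo-3 among genes of at least 50 scaled CPM, were thus unevenly spread inside Myelo-3.

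Of 10 tested late neutrophil genes 4 rose (Mmp9, Retnlg, Fpr2 and Ccl6), 6 did not pass, and all 10 estimates were positive, with a median log2 fold change of 0.60 beside 0.01 over all genes tested. Fpr2 rose by 0.79 ± 0.13 and Ccl6, a chemokine gene at low level, by 2.92 ± 0.59. Ccl6 was not called without the ribosome-rich cells, nor with the split made inside 5 bins of UMI count. In both of these settings Mmp9, Retnlg, Fpr2 and Mxd1 were called, of 9 late neutrophil genes tested. With all cells S100a6 (0.59 ± 0.13), which was not called within the bins, and Slpi (0.77 ± 0.13) rose too. So did Tmsb10, an actin-binding thymosin gene (0.54 ± 0.12), and Capg, an actin-capping protein gene (0.58 ± 0.13). Sun2, a nuclear envelope gene that links the nucleus to the cytoskeleton, also rose (0.66 ± 0.15). Camp, Ngp and Ltf did not pass the test, with estimates of -0.13 ± 0.31, -0.38 ± 0.29 and -0.21 ± 0.18. Without the ribosome-rich cells Ngp and Lcn2 fell by 0.24 and 0.31 (edgeR adjusted p = 0.0290 and 0.00586).

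DNA replication genes fell with surface Ly-6G. Of 15 S-phase genes 10 fell (Dut, Rrm2, Slbp, Pcna, Tyms, Gins2, Mcm3, Mcm5, Mcm6 and Mcm7) and 5 did not pass, while 14 of the 15 estimates were negative, with a median of -0.81. Pcna, the sliding clamp of DNA polymerase, had 45.2 and 60.6 CPM in the high groups against 147 and 145 in the low groups (-1.44 ± 0.14, edgeR adjusted p = 7.74e-06). Rrm2 had 130 and 106 against 278 and 291 (-1.29 ± 0.13, edgeR adjusted p = 5.89e-06). Slbp, which binds the ends of replication-dependent histone mRNAs, fell by 1.05 ± 0.12. Outside the list, Tk1, thymidine kinase, fell by 1.68 ± 0.17, and Ccne2, the cyclin E2 gene, by 1.75 ± 0.28. All of these genes had passed the threshold, so the lack of overlap between their high and low groups adds no support.

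Mitotic genes did not fall. Of 15 G2/M genes 3 rose, Cenpf (0.79 ± 0.14), Ube2c, a mitotic ubiquitin-conjugating enzyme gene (0.55 ± 0.12), and Tubb4b (0.46 ± 0.12), and 12 did not pass. With all cells 10 of the 15 estimates were positive. Without the ribosome-rich cells 5 rose, with Ccnb1 and Cdc20 added, and 13 estimates were positive. With the split made inside 5 bins of UMI count the same 5 genes rose, and 14 estimates were positive. Mki67 had 138 and 129 CPM against 121 and 109 (0.22 ± 0.12, edgeR adjusted p = 0.457) and Top2a, the topoisomerase of chromosome segregation, 204 and 171 against 198 and 185 (-0.04 ± 0.12, adjusted p = 0.913). As a share of UMIs, S-phase genes took 0.0632% and 0.0860% in the high groups and 0.132% and 0.148% in the low groups, whereas G2/M genes took 0.600% and 0.499% and 0.533% and 0.479%. The S-phase share was thus lower in the high group of both libraries, and the G2/M share was not.

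**Figure D5:**
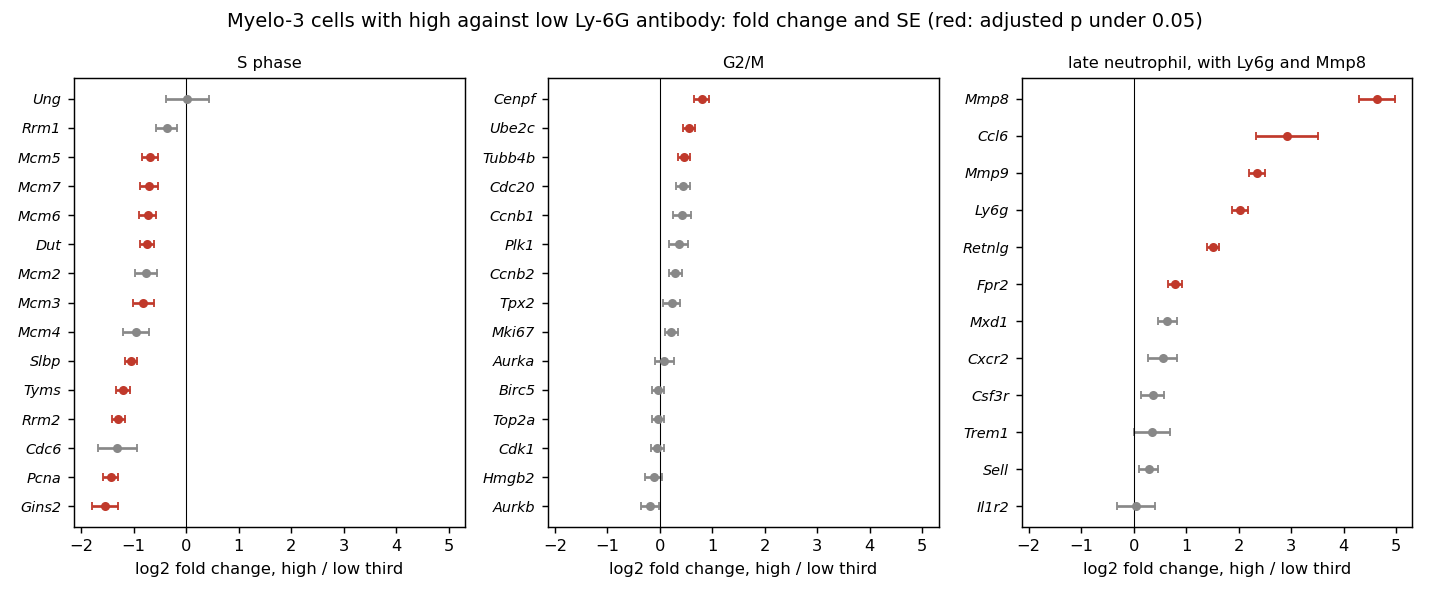
Log2 fold change between Myelo-3 cells of high and of low Ly-6G antibody count (x axes). Bars are SE, computed from edgeR's fold change and F statistic. The panels hold 15 S-phase genes, 15 G2/M genes, and 10 late neutrophil genes with Ly6g and Mmp8. Red points passed the adjusted threshold of 0.05: 10 S-phase genes lie left of 0, and 3 G2/M genes and 6 of the 12 genes in the right panel lie right of it.

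Of 9 tested primary granule list genes 1 fell, and the list's median estimate was 0.02, with 6 of 9 positive. That gene was Ms4a3, a membrane protein gene of granulocyte and monocyte progenitors, which fell by 0.80 ± 0.11. Outside that list, Fcnb had 253 and 369 CPM in the high groups against 817 and 845 in the low groups (-1.42 ± 0.14, edgeR adjusted p = 5.60e-06). Cebpb, which encodes the transcription factor C/EBP beta, fell by 0.61 ± 0.12, whereas Cebpe had 815 and 730 against 810 and 806 (-0.07 ± 0.13). The stefin gene Stfa1 fell by 2.09 ± 0.27. BC100530, another stefin gene, fell from 85.8 and 6.84 CPM in the low groups to 3.23 and 3.45 in the high groups (edgeR adjusted p = 0.000276), and both genes have near-identical copies among which reads may be shared.

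The groups of the split differed in more than Ly-6G, and the values are given beside the result. The high group held 6 female and 41 male ribosome-rich cells and the low group 4 and 22. Median UMI counts were 8264 against 10697 in the female library and 8960.5 against 8993 in the male. Without the ribosome-rich cells 133 of 5665 genes rose (2.35%) and 162 fell (2.86%). Of the 110 genes called with all cells, 105 were tested again, all 105 had the same sign and 98 were called. With the split made inside each of 5 bins of UMI count, 109 were tested, all had the same sign and 107 were called. Other settings kept the signs but fewer of the calls. After thinning every cell to the same UMI count, 102 were tested, all 102 had the same sign and 57 were called. Of all 110, edgeR without the library as covariate called 23 and DESeq2 called 14, again with the same signs. Cd74 rose with all cells (2.19 ± 0.32, edgeR adjusted p = 0.000810) and did not pass without the ribosome-rich cells (1.11 ± 0.37, edgeR adjusted p = 0.0679). Pf4 fell by 1.38 ± 0.23, and Rgs1 rose by 1.70 ± 0.26, with all cells, and both had too few counts to be tested without them.

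The cycle shares of single Myelo-3 cells were wide. The share of UMIs from the 15 G2/M genes had quartiles of 0.230%, 0.581% and 0.769% in the 414 female cells that were not ribosome-rich, and 0.199%, 0.504% and 0.708% in the 435 male cells. In Myelo-4 the medians were 0.151% and 0.126%, below the first quartile of Myelo-3 in both libraries, and in Myelo-2 they were 0.657% and 0.630%. Across Myelo-3 cells the Ly-6G count and the S-phase share had a Spearman rho of -0.33 (426 female cells) and -0.26 (529 male cells), and Ly-6G and the G2/M share 0.11 and -0.02. The S-phase share also went with depth, at 0.33 and 0.39 with the UMI count.

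Markers of other cell types were low but not absent in Myelo-3, and their part in the results was not tested. All 8 monocyte markers had at least 1 UMI, and their summed level was 102 and 99.2 scaled CPM, against 77.6 and 67.3 in Myelo-2. The 7 macrophage markers summed to 91.8 and 101 against 80.6 and 82.9, and the 6 basophil and mast cell markers to 389 and 289 against 211 and 402. The basophil and mast cell sum was 250 and 230 without the ribosome-rich cells, and 200 of the female Mcpt8 UMIs came from 1 such cell. The 6 stem cell markers summed to 97.3 and 252 against 48.5 and 63.7, and to 51.8 and 51.7 without the ribosome-rich cells. The 6 dendritic cell markers summed to 47.9 and 155 against 27.9 and 24.4, and to 46.3 and 25.6 without them, and the 5 megakaryocyte markers to 32.4 and 73.5 against 28.8 and 15.5, and to 27.4 and 13.7 without them. The 4 eosinophil markers summed to 24.9 and 20.6 against 21.0 and 22.5. The 8 lymphoid markers summed to 8.31 and 27.7, with 5 and 3 of them at 0, and the 8 erythroid markers to 28.9 and 40.2, with 2 and 1 at 0, against 16.8 and 14.6 in Myelo-2. The erythroid sum was 20.6 and 14.6 once the ribosome-rich cells were left out.

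Between the sexes there was 1 library each, so no test was possible and counting intervals alone are given. Xist had 481 CPM in the female library (exact 95% Poisson interval 461 to 502) and 0.385 in the male, and Eif2s3y and Ddx3y had 0 in the female library and 33.7 and 14.8 in the male, as the labels state. Of 8024 genes with at least 30 UMIs over both libraries, 179 were at least 2-fold higher in the male and 66 in the female Myelo-3 cells after TMM scaling. Without the ribosome-rich cells, which made up more of the male library, the counts were 40 and 63 of 7187. Of the 179 genes, 60 still had enough UMIs to be tested then, and 22 of these were still 2-fold apart. In Myelo-2 the counts were 56 and 48 of 7946.

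All 6 stem list genes and all 4 tested dendritic cell list genes were at least 2-fold higher in the male library with all cells. Of each list 2 genes were still tested without the ribosome-rich cells, and 0 were 2-fold higher. Sox4 had 24.7 CPM (20.2 to 29.9) in female and 75.7 (68.4 to 83.6) in male Myelo-3 cells with all cells, and 9.62 and 10.1 without the ribosome-rich cells. Npm1, a nucleolar protein gene used in ribosome assembly, had 265 (250 to 281) and 421 (404 to 439) with all cells and 228 and 200 without. Of the marker genes, Camp had 64747 and 60491 with all cells and 66159 and 70210 without, and Ly6g 432 (413 to 452) and 362 (346 to 379) with all cells and 448 and 424 without. The order of the sexes in Camp and Npm1 thus turned with the removal of these cells.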

How the data were processed

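CITE-seq UMI counts of 28692 genes and of 4 antibodies (CD117, CD11b, Ly-6C and Ly-6G) were used as the authors deposited them, with the authors' cluster name for each cell. Cell Ranger 2.1.0 and mm10 are named in the submitters' processing notes, and per the labels the sequencing gave 676 M reads for the female and 689 M for the male sample. The deposited natural log values of the antibodies equalled ln((count + 1)/(sum of the 4 antibody counts + 1)) in 44528 of 44528 cases within 1e-08, and served one alternative. The sources used here do not say how clusters were made, whether the antibodies entered them or whether doublets were removed.

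UMIs were summed per library and cluster. Rows without a gene symbol (0.0230% of UMIs) stayed out. Levels are CPM with TMM factors over the sums of all clusters (edgeR 4.0.16, R 4.3.3). A gene was called between clusters when it passed filterByExpr over the 4 sums (minimum count 10) and differed at least 2-fold in the same direction in both libraries, with sums under 3 counts set to 3. The Ly-6G split was tested with edgeR's quasi-likelihood test (glmQLFit, glmQLFTest), with the library as covariate and Benjamini-Hochberg adjustment. The SE given for the split is the absolute log2 fold change divided by the square root of the test's F statistic. Intervals are exact at 95% and cover counting error only. Calculations used Python 3.11.15 with numpy 2.4.6, pandas 2.3.3 and scipy 1.17.1, and the ratio and split steps were tested on simulated data. Alternatives were RLE factors, plain CPM, no filter, thinning to 4000 UMIs, DESeq2 1.42.0, other splits of Ly-6G, each library alone, no shared barcodes and, added after the data were seen, no ribosome-rich cells.

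The members and the gene lists were chosen with earlier results of these data known. Named genes were the markers, for each list the 2 members of highest mean level and those called in both comparisons, the 5 largest differences each way between clusters above a mean of 50 CPM, the 8 largest each way in the split above 20 CPM and the 8 highest against the next cluster. Other genes named in the text were chosen after their values were seen.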

Additional observations from a re-analysis of the deposited data

Results flagged for a closer look

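In 3 gene lists the median ratio of Myelo-3 to a neighbour pointed in opposite directions in the 2 libraries, and the difference between the libraries was not tested. Against Myelo-2, the secondary granule list had a median log2 ratio of 0.18 in the female library and -0.23 in the male, and the S100 and stefin list had 0.30 and -0.23. Without the ribosome-rich cells both lists were on the same side in both libraries, at 0.24 and 0.12 for the secondary granule genes and 0.36 and 0.14 for the S100 and stefin genes. Against Myelo-4, the 13 mitochondrially encoded genes had a median of 0.44 in the female library and -0.22 in the male, and 0.35 and -0.28 without the ribosome-rich cells.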

How the results depend on the processing

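The counts of called genes depended more on the rule than the named groups did. Against Myelo-2, 85 higher genes became 158 with no filter, 162 by edgeR and 9 by DESeq2 (both with the library as replicate block), 43 without the ribosome-rich cells and 250 to 391 when 1 library alone set the call. The 10 lower genes became 16 with no filter, 30 after thinning, 19 without the ribosome-rich cells, 1 by DESeq2 and 114 to 131 with 1 library. Against Myelo-4, 317 higher and 108 lower genes became 130 and 255 with RLE factors. DESeq2 called 61 higher, thinning left 71 lower, and 1 library alone gave 550 to 657 higher and 362 to 384 lower.

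In the Ly-6G split, where the replicate number is the library and both groups come from the same library, 45 genes rose and 65 fell. These counts became 7 and 16 with no replicate block, 6 and 8 by DESeq2, 83 and 110 with no filter, 84 and 107 with an upper and a lower group of all cells, 106 and 129 with the split on the deposited log share, 109 and 148 within bins of UMI count, and 133 and 162 without the ribosome-rich cells. Without shared barcodes 72 rose, and after thinning 41 fell. The estimate for Cd74 was reversed, at -0.0057, with the split on the log share. Over single genes, 1302 planned checks kept the direction and side of the threshold, 24 lost the call, 11 gained it, 121 untested values moved by more than 1 SD between libraries and 1, Cd74, was reversed.

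Antibody log2 ratios moved with the scale. Against Myelo-2, CD117 at -0.28 became 0.11 as a mean log share and 0.044 per 10000 antibody counts, and CD11b at -0.08 became 0.23 and 0.30. Ly-6C at -0.96 became -0.56 and -0.62, and -0.90 without the ribosome-rich cells, and Ly-6G at 1.37 became 1.71 per 10000. Against Myelo-4 the log share and the count per 10000 gave 1.496 and 1.41 for CD117 (1.23 as counts), 0.83 and 0.77 for CD11b (0.51), 1.07 and 1.13 for Ly-6C (0.79), and -1.70 and -1.58 for Ly-6G (-1.90). Without shared barcodes CD117 was 1.26 and Ly-6G -1.94, and without the ribosome-rich cells 1.14 and -1.95. Genes higher in the male library numbered 179, 106 after thinning and 40 without the ribosome-rich cells. The cause of these changes was not tested.

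The depth of Myelo-4, with 31 and 28 cells, limits every ratio to it, and genes at a few UMIs there have no firm fold. With 2 libraries the spread between them is all the error there is.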

Other observations

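A few genes differed between the sexes in Myelo-3 in the same direction with and without the ribosome-rich cells. They were chosen after their values were seen. Plaur, the urokinase receptor gene, had 73.6 CPM in the female library and 29.5 in the male, a log2 ratio of 1.52 after scaling, 1.13 without the ribosome-rich cells and 1.34 in Myelo-2. Rpia, a pentose phosphate pathway gene, had 54.3 and 20.04 CPM (1.64, 1.60 and 1.77). BC100530, a stefin gene with near-identical copies, had 43.5 and 5.59 CPM (3.16 and 2.88), but -0.47 in Myelo-2. With 1 library per sex, sex and library cannot be told apart.

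Hmox1, the heme oxygenase gene, which is a marker in the macrophage list, rose with surface Ly-6G, from 10.2 and 9.94 CPM in the low groups to 20.2 and 27.1 in the high groups (log2 fold change 1.24 ± 0.28 SE, edgeR adjusted p = 0.0280, and 0.0278 without the ribosome-rich cells). It was the only one of 4 tested genes of that list to pass with all cells. Of 5 tested without the ribosome-rich cells, C1qa, a complement gene, rose too.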
